A study of Homo sapiens with 12 samples.

Results

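The 10 genes described here, NOTCH1, NOTCH2, NOTCH3, JAG1, JAG2, RBPJ, MAML1, HES1, NUMB and NUMBL, cover the Notch signalling pathway from the ligand to the nucleus. They were taken as a named list, 10 of the 20056 protein-coding genes of the RefSeq GRCh38.p14 gene table, by a rule that uses no measured value, although the list was drawn up with earlier results of these data known. A peak was given to a gene when its midpoint lay between the ends of the gene, introns included, on the strand of the gene. Of the 10 genes, 9 had a peak somewhere in the 6 libraries and 8 had one in every library, against 61.3% and 29.8% of all genes.

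Notch receptors sit in the cell membrane and bind Jagged or Delta ligands on a neighbouring cell. Binding leads to cleavage of the receptor, and the freed intracellular domain enters the nucleus, joins the DNA-binding protein RBPJ and a Mastermind co-activator, and switches on HES and HEY genes. In the intestinal epithelium the pathway keeps progenitor cells dividing and holds back the secretory fate, and NUMB proteins act against the receptors.

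N4-acetylcytidine (ac4C) is an acetylated form of cytidine in RNA, and NAT10 is the enzyme that makes it. The study asked which RNAs carry NAT10-dependent ac4C in SW620, a cell line from a colorectal cancer, by pulling fragmented total RNA down with an antibody against ac4C and sequencing it. The comparison is between 3 immunoprecipitated libraries of cells with a control shRNA (shControl, genotype given as WT) and 3 of cells with an shRNA against NAT10 (shNAT10, NAT10 knockdown), called control 1 to 3 and knockdown 1 to 3 below. Both lines were made by lentiviral transduction and puromycin selection and share the SW620 background. The labels do not say which of the study's NAT10 shRNAs was used, how many clones the line holds or whether the libraries of a group came from separate cultures, so p-values measure only the spread between these libraries, which may be technical.

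The lists held 18241, 22619 and 20063 peaks in control and 28752, 17877 and 19047 after knockdown, knockdown 1 standing apart with the most. Each peak has a score without a stated unit that runs from 50 to 3233.06, and 7.85% to 14.1% of the peaks of a library lay at 3100 or above. Those were treated as a single tied top class, and every score was turned into a percentile, its rank among the peaks of its own library, so that the top class stands at 92.9 to 96.1 depending on the library. No read counts are listed, which leaves the depth unknown, and the 6 libraries of input RNA were not used here. A peak, its absence and its score therefore give no amount of mRNA. Among 11 genes of the colorectal epithelium, 7 had a peak, against 61.3% of all genes. A peak in all 6 libraries was found in 5 of the 11 (EPCAM, CDX2, VIL1, KRT8 and CDH1), against 29.8% of all genes. CDX1, KRT18, KRT20 and GPA33 had none. Of 8 genes of blood, fibroblasts and endothelium, COL1A1 and VWF had peaks, each in 2 control libraries and 1 knockdown library. None of the 8 had one in all 6. EPCAM, VIL1, CDH1, COL1A1 and VWF, among others of these genes, have no strand in the tables used and took peaks of either strand. NAT10 itself had 1, 0 and 2 peaks in control and 2, 0 and 1 after knockdown, which says nothing about how well the shRNA worked.

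Peaks at or near the 5′ end of a gene are where the deposited coordinates can be set against sequence, since RefSeq windows around annotated starts could be matched for all 10 genes. The 4 stretches below are shown because peak edges fall inside them. They are 30 bases each, from GRCh38.p14, written 5′ to 3′ on the strand of the gene. Capitals mark the bases inside the peak. For JAG1, NOTCH2 and JAG2, which lie on the minus strand, the first capital is the 5′ edge of the first peak of the gene, at chr20:10673985-10674014, chr1:120069613-120069642 and chr14:105168810-105168839. For RBPJ, on the plus strand at chr4:26320793-26320822, the 16 capitals are the bases that the peaks of control 1 and knockdown 3 share.
JAG1: ccggccgctgctgccAGACGGGCTCTCCGG
NOTCH2: cgagaaagtttcagccAAACTTCGGGCGGC
JAG2: gcgcggccccgccccCTCATGCATATGCAG
RBPJ: cctgcgcATGCTCCATCGCCTGGgtaggtt

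The JAG1 peak began exactly at the annotated start of the gene, so its first capital is the first base of the transcript. The NOTCH2 peak began 36 bases into the gene. The first JAG2 peak began at 105168824, before the annotated start at 105168776. A repeat of C followed by any 2 bases (searched as CNNCNNCNN) has been described around ac4C sites, and it was looked for on the sense strand in the 50 transcribed bases of each window, with overlapping matches counted. It occurred once in the first 50 bases of JAG1, NOTCH2 and NOTCH3 and in each NUMBL window. NOTCH1, MAML1 and HES1 had 2 matches each, and JAG2 and NUMB had 0. The RBPJ windows had 0 or 4, with 0 in the window that holds the stretch above. Of 22199 such windows of coding genes, 61.3% held at least 1 match, and on either strand of the whole 300 bases 99.7% did, so a match does not set a gene apart.

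The peaks over the pathway as a whole were not fewer after NAT10 knockdown than in control. The 10 genes together had 26, 32 and 23 peaks in control and 41, 28 and 28 after knockdown. The groups overlapped, with control 2 above 2 of the knockdown libraries. The means were 27.0 ± 4.58 (SD, n = 3) and 32.3 ± 7.51 (SD, n = 3), a difference of 5.33 peaks, which was 1.0 without knockdown 1 and 2.33 when the same number of highest-scored peaks, 17877, was taken from each library. Per 10000 peaks of the library the Notch genes had 14.3, 14.1 and 11.5 peaks in control and 14.3, 15.7 and 14.7 after knockdown. These sums were not tested, since the genes were chosen with earlier results of these data known.

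By gene, the mean number of peaks was higher in knockdown for 5 genes, lower for 0 and equal for 4, and NOTCH3 had none. The median difference over the genes with a peak was 0.667, against 0.0 for all genes. Without knockdown 1 the mean was higher in knockdown for 2 genes (RBPJ and NUMBL) and lower for 3 (NOTCH1, NOTCH2 and JAG2), and the median was 0. No Notch gene had peaks in every library of either group while lacking them throughout the opposite group, a pattern that 0.7% of the 12292 genes with a peak showed (0.334% in control only and 0.366% in knockdown only). None had peak numbers that did not overlap between groups, against 2.25% of all genes (1.59% higher in knockdown and 0.659% higher in control). With 9 genes, a count of 0 is near these shares. The count was 1 without control 1 (RBPJ), without knockdown 2 (NUMBL) and without knockdown 3 (RBPJ), each higher in knockdown. With 3 against 2 libraries such separation is easier to meet. The share over all genes was not computed in these settings, so the shares above do not apply to them. No gene of the whole table passed an adjusted p of 0.05 in a two-sided exact permutation test, in which 3 against 3 libraries cannot go below p = 0.1 and the smallest adjusted p was 1.0. In bulk RNA, fewer cells with a transcript and less of it in each cell cannot be told apart, and neither can be told from less acetylation by a peak number.

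**Figure D1:**
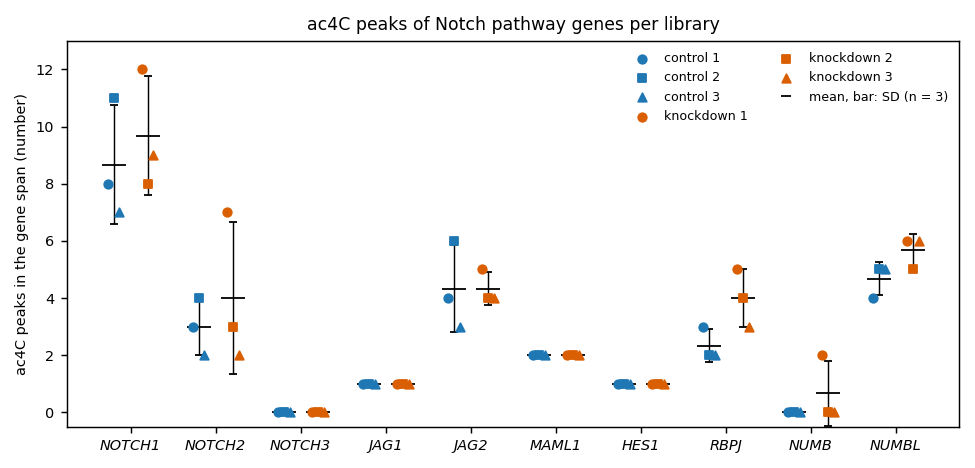
Number of ac4C peaks (vertical axis) in the span of each of the 10 Notch genes, 1 point per library, control in blue and knockdown in orange, with the mean and the SD of 3 libraries as bars. NOTCH1 lies highest with 7 to 12 peaks, JAG1, HES1 and MAML1 have the same number in every library, and the groups overlap in every gene.

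Among the receptors, NOTCH1 carried the most peaks, NOTCH2 few and mostly weak ones, and NOTCH3 none. NOTCH1 and NOTCH2 are the receptors known to act in intestinal progenitor cells. NOTCH1 (chr9:136494433-136546048, minus strand) had 8, 11 and 7 peaks in control and 12, 8 and 9 after knockdown. Both groups spanned the same range within 1 peak. The means of 8.67 ± 2.08 (SD, n = 3) and 9.67 ± 2.08 (SD, n = 3) differed by less than the SD of either group (two-sided exact permutation test, p = 0.6), and without knockdown 1 the difference turned to -0.167.

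When overlapping peaks of the 6 libraries were merged, the NOTCH1 peaks fell into 14 regions, 3 of them in all 6 libraries and 3 in 1 library alone. A single region, of 79 bases and in control 2 and knockdown 1, lay 1946 bases from the 5′ end, and the other 13 lay in the downstream part of the gene, from 26483 bases onwards. The last of these, chr9:136494433-136497558, reached the 3′ end of the gene over up to 3126 bases. It had 1 upstream edge in all libraries, while the downstream edge varied. Its score percentiles were 86.8, 95 and 93.6 in control and 92.9, 81.3 and 86.1 after knockdown, so that knockdown 2 was lowest and the top class was reached in both groups. The mean was lower in knockdown by 5.00 percentile points, 86.8 ± 5.86 (SD, n = 3) against 91.8 ± 4.39 (SD, n = 3) (two-sided exact permutation test, p = 0.2, adjusted p = 0.894 over 8262 shared regions). Without knockdown 1 the groups would not overlap, at -8.10 points. Without control 1 the difference would be -7.53 points. The percentiles would then separate only through the differing size of the top class, in which control 2, control 3 and knockdown 1 are tied.

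The other NOTCH1 regions found in every library were a strong and a weak one. The strong one, chr9:136515483-136515716, stood at 83.1, 86.1 and 93.6 in control and 85.0, 94.3 and 93.4 after knockdown. The weak one, chr9:136499112-136499259, stood at 26.1, 38.8 and 62.9 in control and 70.8, 33.1 and 27.1 after knockdown, with 1 high library in each group. Neither differed between the groups beyond the replicate spread (exact permutation test, p = 0.6 and p = 0.9). One NOTCH1 region leaned towards the knockdown by presence: chr9:136519443-136519565, of 123 bases, had a peak in control 2 only among the controls, at percentile 69.9, and in all 3 knockdown libraries, at 75.0, 66.1 and 75.3. Without control 2 this region would have peaks in the knockdown only.

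NOTCH2 (chr1:119911553-120069662, minus strand) had 3, 4 and 2 peaks in control and 7, 3 and 2 after knockdown. Apart from knockdown 1 the libraries had like numbers, and without it the difference of 1.0 peaks turned to -0.5 (exact permutation test with all libraries, p = 0.9). Of its 11 regions 8 were seen in 1 library alone, 5 of them in the knockdown. Away from the gene start the scores ran from percentile 1.63 to 55.9, both in knockdown 1. The region at the gene start shown above, chr1:120069334-120069626, was the only 1 found in all 6 libraries, with identical edges. It stood at 76.1, 70.8 and 63.0 in control and 68.0, 58.9 and 41.4 after knockdown. Knockdown 1 lay above control 3, so the groups overlapped, and leaving out either of these libraries would end the overlap. The difference, knockdown minus control, was -13.8 percentile points, from 69.9 ± 6.61 to 56.1 ± 13.5 (SD, n = 3 each), the largest fall among the compared regions of these genes, and it did not pass the test (two-sided exact permutation, p = 0.2, adjusted p = 0.894). NOTCH2 also had a 3′ region, chr1:119915152-119916694, with peaks of up to 1538 bases, in 2 libraries of each group, at percentiles 51.8 and 23.0 in control 1 and 2 and 32.4 and 32.9 in knockdown 2 and 3.

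NOTCH3 (chr19:15159038-15200995, minus strand), a receptor best known from vascular smooth muscle, had no peak in any library on either strand.

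**Figure D2:**
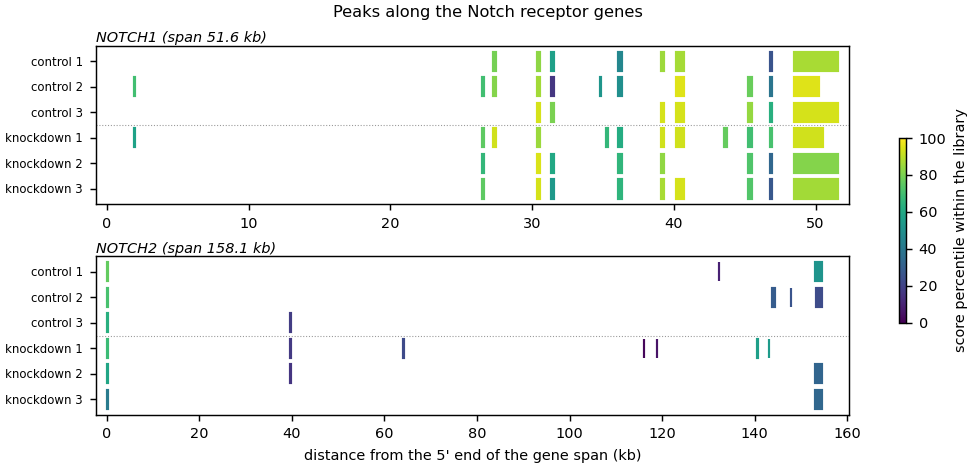
Peaks along NOTCH1 and NOTCH2, by distance from the 5′ end of the gene in kb, 1 row per library and the 3 control libraries above the dotted line; bar colour gives the score percentile within the library, each bar has an outline that widens the shortest peaks, and where bars meet the higher-scored one is drawn on top. NOTCH1 peaks gather in the downstream part of the gene in both groups, and NOTCH2 has its steady peak at the gene start.

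Among the 10 genes, the ligand genes had the largest share of their peaks in the top score class. NOTCH1 held 13 such peaks as well, RBPJ 2 and HES1 1. JAG1 encodes a membrane-bound Jagged ligand. JAG1 (chr20:10637684-10673999, minus strand) had exactly 1 peak in every library, chr20:10673450-10673999, of 550 bases and with the same edges in all 6. Its score was in the top class in all 6 libraries, where the percentile depends only on the size of that class and no difference between the groups can be seen. It was the only one of the 13 Notch-gene regions shared by all 6 libraries to do so, against 10.1% of such regions over all genes.

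JAG2 (chr14:105140995-105168776, minus strand), the second Jagged ligand gene, had 4, 6 and 3 peaks in control and 5, 4 and 4 after knockdown. The control libraries spread more widely than the knockdown libraries and enclosed them, with means of 4.33 ± 1.53 and 4.33 ± 0.577 (SD, n = 3 each; exact permutation test, p = 1). Of its 26 peaks over the 6 libraries 14 were in the top class. The first region, chr14:105168355-105168824, had identical edges in the 5 libraries that had it, at percentile 90.2 in control 1 and in the top class in the other 4. Control 2 lacked it and had instead a top-class peak at chr14:105167757-105168107, further into the gene, that no other library had.

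Of the JAG2 regions inside the gene, chr14:105155738-105155989 was in all 6 libraries. It stood at 81.6, 88.9 and 93.6 in control and in the top class in all 3 knockdown libraries (92.9, 94.3 and 93.4), a difference of 5.52 percentile points with overlapping groups (two-sided exact permutation test, p = 0.3, adjusted p = 0.894). Control 3 was in the top class as well, and without it the groups would not overlap. The region at chr14:105150604-105150777 was in all knockdown libraries, at 80.9, 77 and 79.7, and in control 1 and 2, at 60.7 and 74.5. It was missing from control 3, so its ranks were not tested. The 3′ region of up to 2190 bases, chr14:105140981-105143170, was in the top class everywhere but in control 1 (85.3) and had 1 upstream edge and a varying downstream edge, like that of NOTCH1.

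**Figure D3:**
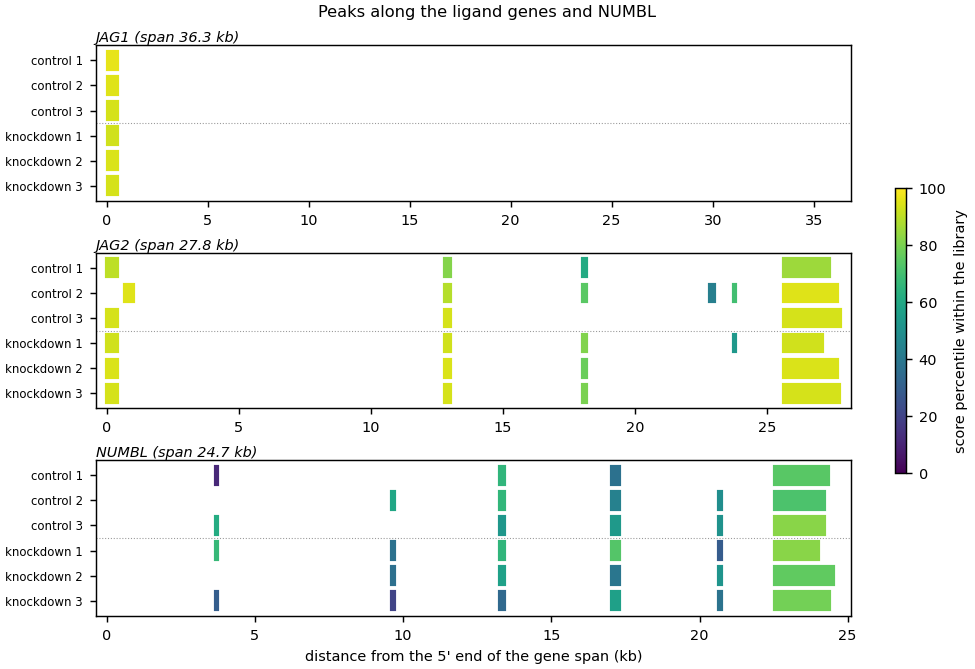
Peaks along JAG1, JAG2 and NUMBL, drawn as for the receptors (distance from the 5′ end in kb, colour for the score percentile, control above the dotted line, outlines widen short peaks). JAG1 has its single top-class peak at the start of the gene in every library, control 2 alone lacks the first JAG2 peak, and the NUMBL peaks change little in place.

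In the nucleus, RBPJ is the DNA-binding partner of the receptor domain, MAML1 the co-activator that joins them, and HES1 a repressor that is a classic target of the complex. RBPJ (chr4:26105449-26435131, plus strand) had 3, 2 and 2 peaks in control and 5, 4 and 3 after knockdown. It showed the largest difference of peak number among the 10 genes, and knockdown 3 equalled control 1. The 5 peaks of knockdown 1 include 2 within a stretch that was 1 peak in control 2, control 3 and knockdown 2. The means were 2.33 ± 0.577 and 4.0 ± 1.0 (SD, n = 3 each), 1.67 peaks apart (two-sided exact permutation test, p = 0.2, adjusted p = 1.0). The difference was 0.667 among the better-scored 50% of peaks and 0.667 with the same number of peaks per library, less than with all peaks. Peaks seen in 1 library alone were 1 in knockdown 1 at percentile 18.5 and 1 in knockdown 2 at 8.58.

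The main RBPJ peak lay about 65% of the way along the span, where RefSeq places starts of shorter transcripts at 26319746, 26321014 and 26321228, and its place differed between libraries. Control 1 (chr4:26320800-26321048) and knockdown 3 (chr4:26320563-26320815) had peaks upstream that share the 16 bases shown above, at percentiles 96.1 and 70.8. The other 4 libraries had theirs within chr4:26321365-26321871, at 87.3 and 71.4 in control 2 and 3 and 92.9 and 77.3 in knockdown 1 and 2. No library had both, and each form occurred in both groups, so the split did not follow the knockdown. Knockdown 1 had the downstream stretch as separate peaks, the second of them at percentile 13. Toward the 3′ end, the 96-base region chr4:26406175-26406270 was in control 1 and 2 and all knockdown libraries, with percentiles from 6.05 to 50.4. The region from 26415475 was in control 1 and 3, at 4.59 and 20.1, and in all knockdown libraries, at 50.7, 18.1 and 45.4.

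MAML1 (chr5:179732822-179777283, plus strand) had 2 peaks in every library, with identical edges in all 6. The longer of them, chr5:179765326-179766741, of 1416 bases, gave the largest rise in rank among the shared regions of the Notch genes. It stood at 30.3, 40.3 and 71.2 in control and at 65.2, 75.6 and 77.1 after knockdown. Control 1 and 2 were low, while control 3 lay among the knockdown libraries. The mean rose from 47.3 ± 21.3 to 72.6 ± 6.49 (SD, n = 3 each), 25.4 percentile points apart, which did not pass the test (two-sided exact permutation, p = 0.2, adjusted p = 0.894). Without control 3, or without knockdown 1, the groups would not overlap. The shorter region, chr5:179768850-179769089, showed nothing of the kind, at 34.1, 47.8 and 33.3 in control and 59.8, 25.5 and 35.7 after knockdown (exact permutation test, p = 0.8).

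HES1 (chr3:194136148-194138732, plus strand) is short and had the densest peaks for its length, 3.87 per 10 kb of gene in the mean of the 6 libraries, before NUMBL with 2.09, NOTCH1 with 1.78 and JAG2 with 1.56. These densities are peak numbers over exons and introns together. Every library had 1 HES1 peak. All began at 194137683, 1535 bases into the gene, and ended between 194138547 and 194138660. Score percentiles were 68.5, 95 and 63.5 in control and 76.9, 71.9 and 85.8 after knockdown. Control 2 held the highest and control 3 the lowest value, enclosing the knockdown libraries, and the means of 75.7 ± 16.9 and 78.2 ± 7.04 (SD, n = 3 each) did not differ by the test (exact permutation, p = 0.9). Without control 2 the groups would not overlap and the difference of 2.51 points would be 12.2, while without control 1, control 3 or knockdown 3 it would turn to -1.05, -3.55 or -1.27.

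**Figure D4:**
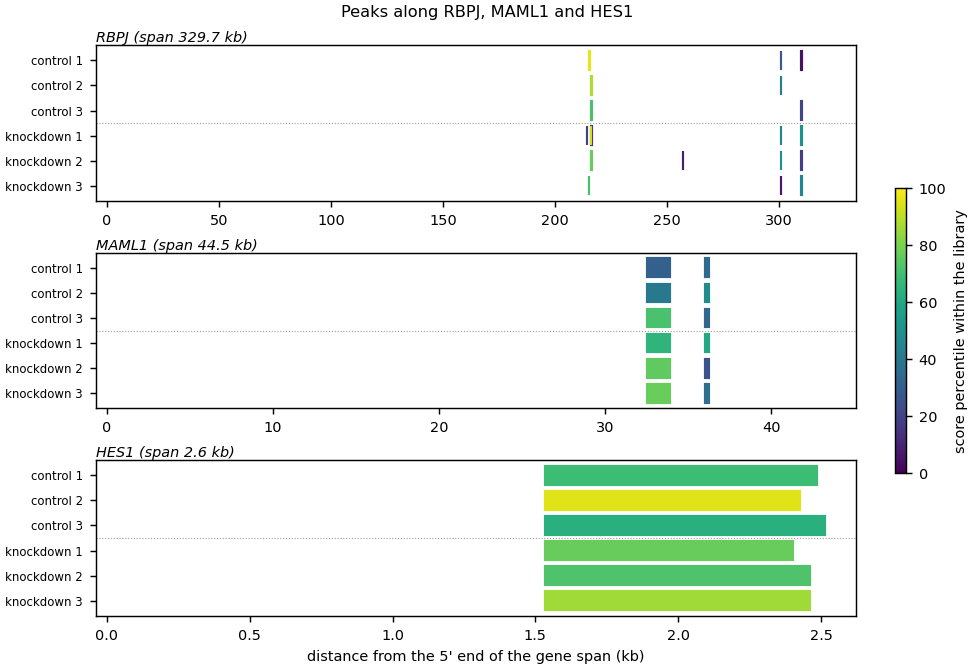
Peaks along RBPJ, MAML1 and HES1, drawn as for the receptors (distance from the 5′ end in kb, colour for the score percentile, control above the dotted line, outlines widen short peaks). The long MAML1 peak is darker, that is lower in rank, in control 1 and 2 than in the other 4 libraries, and the HES1 peaks share 1 upstream edge.

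NUMB and NUMBL encode adaptor proteins that act against Notch receptors, and the pair differed widely in peaks. NUMB (chr14:73275216-73458546, minus strand) had 0 peaks in all control libraries and 2, 0 and 0 after knockdown. Both were in knockdown 1, the library with the most peaks of all, at percentiles 16.2 and 43.1. NUMBL (chr19:40665905-40690651, minus strand) had 4, 5 and 5 peaks in control and 6, 5 and 6 after knockdown. Its range was narrow, and knockdown 2 equalled control 2 and 3. The means of 4.67 ± 0.577 and 5.67 ± 0.577 (SD, n = 3 each) did not pass the test (two-sided exact permutation, p = 0.3, adjusted p = 1.0), and among the better-scored 50% of peaks the difference turned to -0.333.

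The NUMBL peaks fell into 6 regions, 3 of them in all 6 libraries. Its 3′ region of up to 2039 bases, chr19:40666100-40668138, was the steadiest, at 74.0, 71.6 and 82.4 in control and 82.1, 75.4 and 78.8 after knockdown, and the groups would not overlap without control 3. The other 2 moved in opposite directions within the replicate spread. The region at chr19:40673344-40673649 was 11.4 percentile points higher in knockdown, or 20 points and without overlap if knockdown 2 is left out (exact permutation test with all libraries, p = 0.4), and that at chr19:40677232-40677421 was lower, by -9.33 points (exact permutation test, p = 0.6). A NUMBL region of 141 bases, chr19:40680917-40681057, had a peak in control 2 only among the controls, at percentile 59.1, and in all 3 knockdown libraries, at 37.3, 36.5 and 20. Each knockdown library ranked it lower than control 2 did, and without control 2 it would be in the knockdown only.

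Taking all peaks of the Notch genes, 178 in the 6 libraries, the merged regions numbered 50, of which 13 (26.0%) were in all 6 libraries and 17 (34.0%) in 1 alone, against 22% and 38.7% of the 41755 regions of all genes. Of the 17, knockdown 1 held 10 and control 2 held 5, the libraries with the longest lists. No Notch-gene region was confined to either group and found in each of its libraries, against 1.16% of all regions. A difference of at least 2 libraries was seen in the NOTCH1 and the NUMBL region given above, both with more knockdown libraries, that is 2 of 50 against 9.99% of all regions (5.92% with more knockdown and 4.07% with more control libraries). Edges were the same in every library that had the region for 24 of 33 (72.7%) Notch-gene regions found in 2 or more libraries, and for 60.6% over all genes. Among regions in all 6 libraries the shares were alike, 9 of 13 (69.2%) in the Notch genes and 68.9% over all genes. Pooled over the genes, the peaks ranked high in both groups: the median percentile of their peaks was 67.0, 69.7 and 71.4 in control and 66.2, 65.8 and 71.8 after knockdown, and 20.2% were in the top class, against 11.8% of all peaks. This did not hold for each gene. The median was 29.6 in NUMB, 32.4 in NOTCH2, 44 in MAML1 and 44.6 in RBPJ. It was 53.9 in NUMBL and from 74.4 to 93.9 in HES1, NOTCH1, JAG2 and JAG1. Of the 36 top-class peaks, JAG2 held 14, NOTCH1 13 and JAG1 6.

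Of the 13 shared regions, 12 could be compared by rank, JAG1 being in the top class throughout. The mean percentile was higher in knockdown in 9 and lower in 3, with a median difference of 2.39 points. Over all 8262 shared regions compared, 60.0% were higher in knockdown and the median difference was 1.91, the same direction as in the Notch genes. In the Notch genes this direction turned without control 1: 5 of 13 regions were higher and 8 lower in knockdown, with a median difference of -1.06. Those 13 include regions that control 1 lacked and leave out the JAG2 3′ region, which is then in the top class throughout. Without control 3 the median was 5.95. The share over all regions was not computed with a library left out. In 0 of the 12 did the groups not overlap, against 12.2% of all shared regions (7.77% higher in knockdown and 4.48% higher in control), and the smallest adjusted p over all of them was 0.816 (exact permutation test).

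**Figure D5:**
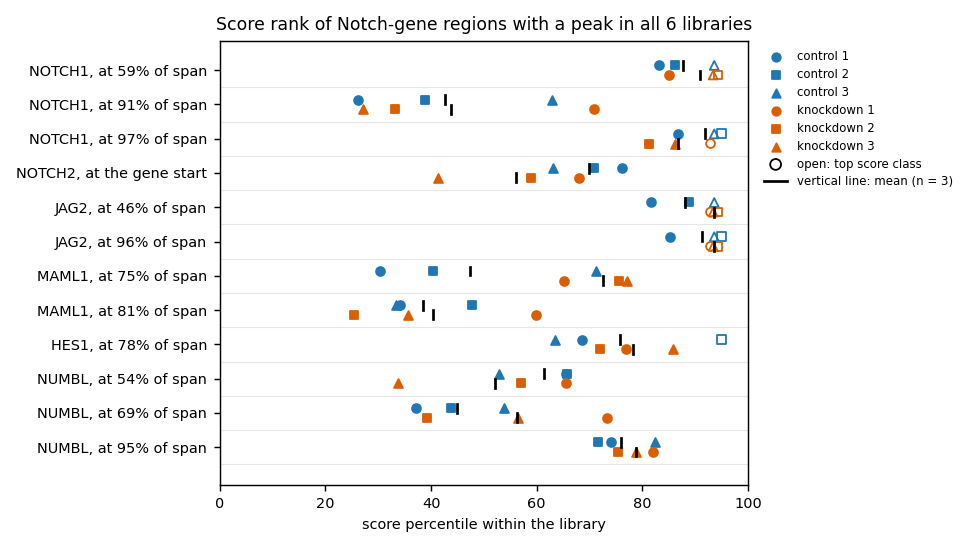
Score percentile within the library (horizontal axis) of the 12 Notch-gene regions with a peak in all 6 libraries that were not in the top class throughout, named by gene and by the place of the region's middle along the gene; points are libraries, open where in the top class, and lines are means of 3. The long MAML1 region at 75% of the gene rises most, from a mean of 47.3 to 72.6, and NOTCH2 at the gene start falls most, from 69.9 to 56.1, with overlapping groups in all 12.

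Among 60 other genes of the pathway, chosen by their known roles as further ligands, receptor-processing enzymes, co-factors, targets and ubiquitin ligases, 59 were in the gene table, 48 had a peak and 27 had one in all 6 libraries. MIB2, a ubiquitin ligase that acts on Notch ligands, was the only one with peaks in every library of either group and in no library of the opposite one, against 0.366% of all genes in this direction. It had 1 peak, chr1:1630292-1630610, at its 3′ end in each knockdown library, at percentiles 80.9, 94.3 and 85.0, and 0 peaks in each control library (two-sided Fisher's exact test, p = 0.1). Peak numbers did not overlap between groups in 3 of the 48, all higher in knockdown, against 1.59% of all genes. These were MIB2, NCOR1, a co-repressor found with RBPJ, and DTX3, a ubiquitin ligase of the Deltex family, which has no strand in the tables used and so took peaks of either strand. NCOR1 had 4, 4 and 4 peaks in control and 5, 6 and 5 after knockdown. DTX3 had 1, 1 and 1 in control and 2, 2 and 2 after knockdown. The second DTX3 peak, chr12:57609077-57609804, was weak, at percentiles 56.1, 17.2 and 42.3. For all 3 genes p was 0.1 and adjusted p 1.0 (exact permutation test). With 3 against 3 libraries neither this test nor Fisher's test can give a smaller p, so no gene could pass.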

How the data were processed

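The 6 immunoprecipitated libraries were grouped by their labels. The authors called peaks in each library separately and deposited lists limited to mRNA peaks, each peak with a score of unstated unit. The score was used only as a rank within its library, scores of 3100 or above tied. Genome build GRCh38 was named in the submitters' processing notes. The aligner, the peak caller's version and settings and the exon annotation are not given in the sources used here, and exon or UTR placement was not analysed here.

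Peaks were assigned by midpoint and strand to coding genes of the RefSeq GRCh38.p14 table. Genes without a strand in the tables (all but 15843 of 20056, no Notch gene of the 10 among them) took peaks of either strand. Peaks overlapping by at least 1 base on a strand were merged into regions. Peak numbers were tested for all 12292 genes with a peak and percentiles for all 8262 regions with a peak in every library and not in the top class throughout, by two-sided exact permutation tests with Benjamini-Hochberg adjustment over all of them. Presence was tested by Fisher's exact test. All 10 genes are named. Of 60 further pathway genes only those whose groups differed in presence or did not overlap in peak number are named. The genes, lists and tests were chosen with earlier results of these data known. The code was tested on simulated lists. Python 3.11.15, numpy 2.4.6, pandas 2.3.3, scipy 1.17.1 and matplotlib 3.10.9 were used.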

Additional observations from a re-analysis of the deposited data

How the results depend on the processing

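No Notch gene met the criterion of peaks throughout a single group, and none passed the adjusted test, under any alternative run. With so few libraries the test cannot bring an adjusted p under 0.05, so the second of these results was fixed in advance. For merged regions the count of 0 became 1 with the better-scored 50% of peaks (NOTCH1 chr9:136509733-136509961, knockdown only) and 2 with a difference of 2 libraries, and ranged from 0 to 2 with a library left out, 2 being the NOTCH1 and NUMBL regions that control 2 alone held among the controls. For shared regions ranked by score, the number without overlap was 0 with all libraries and ranged from 0 without knockdown 3 to 6 without control 3, with 2 without control 1, 1 without control 2, 3 without knockdown 1 and 1 without knockdown 2. Of those without control 1, the NOTCH1 3′ region separated only through the differing size of the tied top class. With 3 against 2 libraries such separation is easier to meet, and the cause was not tested. Shares over all genes and all regions were not computed with a library left out, so these counts have no background beside them. The median difference of the score ranks turned from 2.39 to -1.06 without control 1. Peak numbers without overlap were 0 or 1 gene with a library left out. The difference of the summed peak number was 3.67 with the better-scored 50% of peaks, and 1.0 to 7.83 with a library left out. Of single genes, MAML1 moved from 0.0 to 1.0 with the better-scored peaks, NUMBL to 0.333 with equal peak numbers. Ranks with scores as deposited, and regions without any top-class library (7), both chosen after seeing the data, gave 0 without overlap. Same-numbered libraries were only weakly alike: their deviations correlated by 0.0495, 0.0172 and 0.0311, although each library correlated best with its own number. Whether the numbers pair the libraries stays undetermined. The permutation test with the replicate block gave 0 genes past the adjusted threshold. Its smallest p, 0.25, is the lowest that test can reach, so no gene could pass. Counts behind the peaks are unknown, so no limit of detection can be given for a gene without a peak.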
